A study of Mus musculus with 6 samples.

Results

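The insulin-like growth factor (IGF) system of the mouse uterine tube was followed through 9 genes, listed by name as members of the system, with earlier results of these data known: the ligands Igf1 and Igf2, the receptor Igf1r, and the binding proteins Igfbp2, Igfbp3, Igfbp4, Igfbp5, Igfbp6 and Igfbp7. All 9 were found among the 50559 genes of the count matrices. The material was the uterine tube, or oviduct, of adult C57BL6 females in estrus, cut into a proximal section (toward the uterus) and a distal section (toward the ovary). Each section gave 3 droplet libraries, numbered in their titles 2, 3 and 4 for proximal and 1, 2 and 3 for distal. The labels name no engineered allele and no treatment in either group. Several mice were pooled into each library, so the spread between libraries is a spread between pools, and nothing in the labels says whether a proximal and a distal library came from the same mice.

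IGF1 and IGF2 are secreted growth factors that signal through the receptor tyrosine kinase IGF1R and, downstream, the PI3K-AKT and MAPK pathways. IGF-binding proteins hold most of the ligand in tissue and blood with high affinity, which can limit or prolong its action, and proteases such as PAPP-A and the HTRA family release ligand by cutting them. IGFBP7 binds IGFs only weakly and is a well known product of vessel walls. In the female reproductive tract Igf1 is known as a stromal growth factor under the control of oestrogen and growth hormone.

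The start-site windows of 4 binding proteins are shown because the results below turn on these genes: Igfbp2 and Igfbp5, which were higher in 1 cluster of ciliated cells than in the other ciliated clusters, and Igfbp7 and Igfbp3, which were lower in proximal endothelium. Each window holds 250 bases before and 50 after an annotated start (RefSeq, GRCm38.p6, gene strand), and all 9 genes had at least 1 window in the table. Igfbp2 (chr1:72824230-72824529, + strand, the first of 2 windows listed for it) and Igfbp5 (chr1:72874816-72875115, - strand) lie on the same chromosome on opposite strands. Igfbp7 lies at chr5:77407996-77408295 on the - strand and Igfbp3 at chr11:7213874-7214173 on the - strand. Capitals mark matches on either strand to any of 4 motifs: the TATA box (TATAAA), the GC box (GGGCGG), the core of the X-box that RFX factors bind (GTTGCC) and the forkhead core (TGTTTA).
Igfbp2: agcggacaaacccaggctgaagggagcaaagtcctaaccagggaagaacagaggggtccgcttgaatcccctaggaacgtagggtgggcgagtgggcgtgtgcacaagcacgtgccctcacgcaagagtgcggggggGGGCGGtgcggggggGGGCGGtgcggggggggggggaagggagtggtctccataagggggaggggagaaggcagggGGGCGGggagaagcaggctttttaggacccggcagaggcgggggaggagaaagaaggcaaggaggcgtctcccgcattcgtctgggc
Igfbp5: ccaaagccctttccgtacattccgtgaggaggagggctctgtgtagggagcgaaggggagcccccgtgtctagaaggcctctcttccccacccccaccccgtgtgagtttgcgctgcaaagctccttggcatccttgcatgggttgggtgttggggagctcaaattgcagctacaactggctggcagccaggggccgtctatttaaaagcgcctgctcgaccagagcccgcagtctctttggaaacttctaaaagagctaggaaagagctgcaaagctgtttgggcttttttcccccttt
Igfbp7: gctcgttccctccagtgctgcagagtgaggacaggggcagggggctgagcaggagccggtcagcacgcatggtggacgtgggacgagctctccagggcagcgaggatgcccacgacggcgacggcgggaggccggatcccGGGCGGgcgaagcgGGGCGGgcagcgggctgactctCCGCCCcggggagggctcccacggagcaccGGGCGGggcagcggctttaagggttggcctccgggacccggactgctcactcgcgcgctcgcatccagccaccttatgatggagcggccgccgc
Igfbp3: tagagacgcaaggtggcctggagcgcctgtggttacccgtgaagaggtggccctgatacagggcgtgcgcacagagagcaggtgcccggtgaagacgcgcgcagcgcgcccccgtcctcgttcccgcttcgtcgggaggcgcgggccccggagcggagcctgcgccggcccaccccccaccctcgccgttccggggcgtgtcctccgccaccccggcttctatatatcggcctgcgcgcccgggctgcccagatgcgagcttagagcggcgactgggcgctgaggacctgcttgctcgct
The GC box occurred 3 times in the Igfbp2 window and 4 times in the Igfbp7 window, and the Igfbp3 and Igfbp5 windows held no match to any of the 4 motifs. A GC box was present in 35.7% of all 32851 windows in the table, so these matches are common. The second Igfbp2 window held 1 forkhead core, a motif found in 13.4% of all windows. These matches describe letters only. The Igfbp7 and Igfbp3 windows were 73.3% and 71.7% G and C, and those of Igfbp2 and Igfbp5 were 67.0% and 56.3%.

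After filtering, 18466 of 20731 barcodes remained as cells: 824, 325 and 1133 in proximal libraries 2, 3 and 4, against 6652, 4115 and 5417 in distal libraries 1, 2 and 3. Total UMIs (unique molecular identifiers, counts of captured RNA molecules) were 5633091, 426707 and 1978458 in the proximal libraries, against 32488145, 24175396 and 26858293 in the distal ones. Proximal values therefore rest on far fewer molecules. Pairs of libraries shared between 0 and 58 barcodes. The libraries numbered 2 stood apart from the others of their section in both sections, most visibly in fibroblasts, and the tests that passed and include them are given with and without them. Levels below are CPM (counts scaled to the same total) of the UMIs summed over the cells of 1 class in 1 library, for libraries with at least 10 such cells, and they cannot separate fewer expressing cells from less RNA per cell. All 7 blood endothelial markers, all 7 fibroblast markers and all 10 ciliated markers used were detected in every library of their class. T and NK cells are given as a rough guide to the level that RNA from other cells can reach. Their own expression of the 9 genes was not separated from such RNA. For Igf1r they held 132 to 339 CPM in distal libraries, inside the range of the other classes.

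Igf1, the main ligand, was a product of stroma, visceral smooth muscle and mesothelium. In distal libraries 1, 2 and 3, visceral smooth muscle (cells with Actg2) held 616, 912 and 700 CPM of Igf1, and fibroblasts held 299.9, 756 and 386 CPM. Mesothelium, the outer lining, held 854 and 1422 CPM in the 2 distal libraries with enough cells. The ranges of these classes overlapped, and all lay above the next class in the order, myeloid cells, at 145 ± 73.2 CPM (SD, n = 3). Blood endothelium held 20.3 ± 10.9 CPM, which overlapped the 27.0 ± 35.7 CPM of T and NK cells. Ciliated and non-ciliated epithelium were at the bottom, with 8.25 ± 2.52 and 3.10 ± 1.10 CPM (n = 3 each). Both epithelial means were below that of T and NK cells.

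Igf2, the fetal growth factor, was scarce throughout. No UMI of it was found in distal ciliated epithelium, which allows up to 0.271 CPM at a floor of 3 counts over the group. Distal fibroblasts held 8.09, 5.30 and 15.4 CPM and distal blood endothelium 13.6, 0 and 10.6 CPM. The single distal lymphatic sample held 45.4 CPM from 3 UMIs, and the pericyte-like cluster M5 held 3.79, 132.8 and 0 CPM, where the middle value also rests on 3 UMIs. T and NK cells, myeloid cells and mesothelium of the distal libraries had 0 UMIs of Igf2. In blood endothelium the proximal libraries held 31.6 and 65.0 CPM, from 1 and 6 UMIs, against 13.6, 0 and 10.6 CPM in the distal libraries. These ranges did not overlap, but the gene did not pass the filter on low counts and was not tested there.

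**Figure D1:**
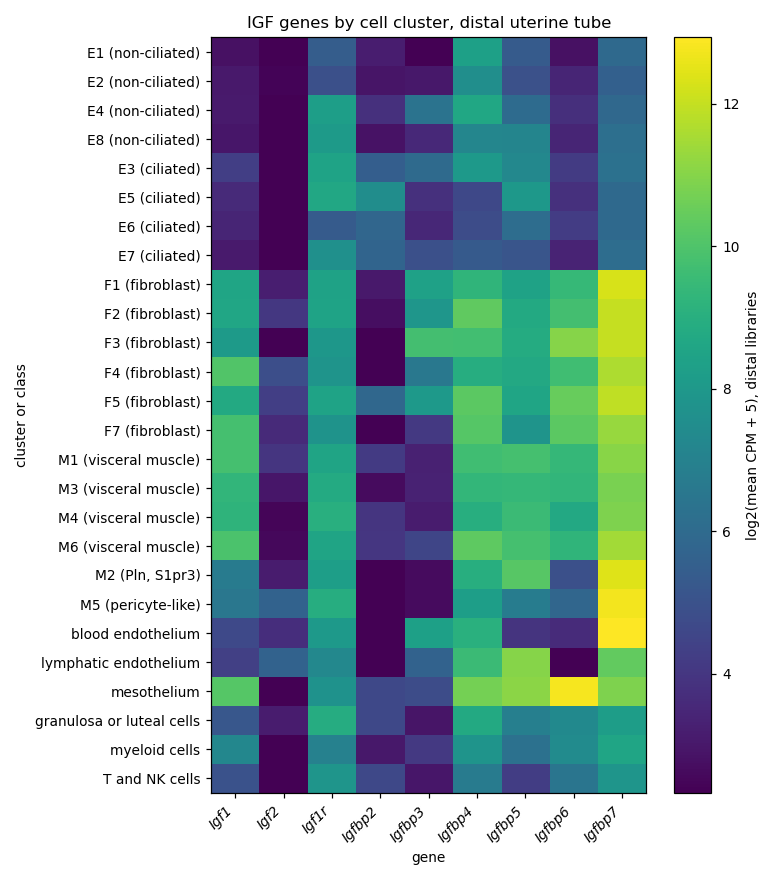
Levels of the 9 IGF genes in distal cell clusters and classes, as log2(mean CPM + 5) over the distal libraries with at least 10 cells, with genes across and clusters down. Igf1 and Igfbp6 are high in fibroblast, visceral smooth muscle and mesothelium rows, Igfbp7 is highest in blood endothelium and the pericyte-like cluster, Igfbp2 stands out in ciliated cluster E5, and Igf2 is low in every row.

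Igf1r, the signalling receptor, was detected in every distal class. Its class means in distal libraries ran between 124 CPM in myeloid cells and 489 CPM in the pericyte-like cluster M5. Visceral smooth muscle held 509, 291 and 490.5 CPM, fibroblasts 399.7, 239.9 and 352 CPM, ciliated epithelium 304, 241 and 356 CPM, and non-ciliated epithelium 229, 118 and 305 CPM. Every neighbouring pair in this order down to mesothelium overlapped in range, so the order itself is not resolved. T and NK cells held 132 to 339 CPM, inside the range of the other classes.

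Within epithelium the receptor was uneven. In distal libraries 1, 2 and 3, cluster E2 held 24.1, 10.1 and 42.2 CPM of Igf1r. Its leading genes included Upk1a, S100b and the haemoglobin genes Hbb-bt, Hbb-bs, Hba-a2 and Hba-a1. Cluster E4 (Slc6a2, Msln) held 338, 238 and 327 CPM and cluster E8 (Dcpp genes, Gabrg3) 295, 188 and 330 CPM. All E2 values lay below all E4 and E8 values in the same libraries. Among ciliated clusters, E5 held 459.5, 358 and 399 CPM and E6 17.1, 40.7 and 51.3 CPM. The low clusters also differed in RNA content: the median cell of E6 had 1111 UMIs and a median mitochondrial share of 0.127%, that of E2 had 2840 UMIs and 0.530%, that of E4 6972 UMIs and 4.74%, and that of E5 2957 UMIs and 8.69%. The 3 haemoglobin genes used as red blood cell markers summed to 5678 to 26397 CPM in distal E2. The part of RNA quality and of RNA from red blood cells in the Igf1r difference was not tested.

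Igfbp2 was chiefly a ciliated-cell transcript, with a second site in cluster F5 of the fibroblasts. Distal ciliated epithelium held 78.7, 71.3 and 86.3 CPM, and no other class with 3 distal libraries reached that range in its own. The highest of the other classes was T and NK cells at 0, 0 and 59.7 CPM, where all UMIs came from 1 library. Blood endothelium had 0 UMIs of Igfbp2 in all 5 libraries, which allows up to 24.2 CPM in the proximal and 1.94 CPM in the distal group.

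Ciliated cluster E5 (Rgs22, Dnah12, Dnah5, the dynein and cilium genes) held 146, 157 and 241 CPM of Igfbp2 in distal libraries 1, 2 and 3. The other ciliated clusters were lower: E3 held 43.9, 29.4 and 47.0 CPM, E6 48.5, 37.0 and 71.8 CPM, and E7 (Wfdc12) 35.2, 41.8 and 67.7 CPM. Non-ciliated clusters were lower still, with 18.4, 1.68 and 6.93 CPM in E4 and at most 5.82 CPM in E2 and 3.44 CPM in E8. In E5, 32.7%, 28.5% and 36.3% of cells had at least 1 Igfbp2 UMI, against 0%, 0% and 1.82% of T and NK cells of the same libraries. With every cell thinned to 500 UMIs the E5 shares were 5.75%, 5.06% and 9.32%, and no T or NK cell had one (0 of 61, 0 of 101 and 0 of 55 cells), for which the exact 95% upper limits were 5.87%, 3.59% and 6.49%. Median depths were 3751, 3008 and 2484 UMIs in E5 and 1871, 2052 and 1623 UMIs in T and NK cells. The clustering did not use any of the 9 genes. Rgs22, Dnah12 and Dnah5 were also among the leading genes of E3, and Rgs22 and Dnah12 among those of E7. The median mitochondrial share was 8.69% in E5, against 5.12%, 0.127% and 7.16% in E3, E6 and E7. Its part in the Igfbp2 difference was not tested.

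Igfbp5, a binding protein that also attaches to extracellular matrix, was also high in E5. That cluster held 283, 197 and 259 CPM in distal libraries 1, 2 and 3, against 174, 101 and 182 CPM in E3, 51.3, 40.7 and 98.2 CPM in E6, and 30.7, 29.5 and 30.8 CPM in E7. E5 was thus above every other ciliated cluster in every distal library for both genes whose windows are printed first above. Igfbp4 was low in E5, at 8.71, 10.0 and 39.9 CPM, and likewise in E6 (25.7, 22.2 and 19.1 CPM) and E7 (29.5, 22.1 and 52.3 CPM). In the same libraries E3 held 245, 89.6 and 423 CPM and E4 held 381, 252 and 541 CPM. E3 had a median of 15592.5 UMIs per cell and had Pde4b, which also led E4 and E8, among its leading genes. The part of RNA from other cells in its Igfbp4 was not tested.

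**Figure D2:**
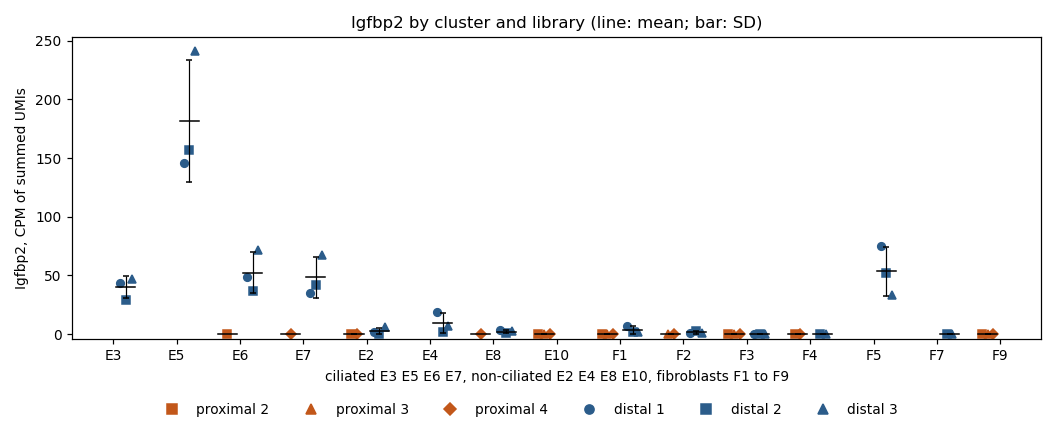
Igfbp2 in CPM of summed UMIs by cluster, 1 point per library with at least 10 cells, orange for proximal (left) and blue for distal (right), with the mean and SD. Distal E5 sits at 146 to 241 CPM and distal F5 at 33.6 to 74.9 CPM, and every proximal point sits at 0.

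Among fibroblasts Igfbp2 was a gene of cluster F5 (Sfrp2, Tnc), a distal cluster with 335, 260 and 352 cells in the distal libraries. F5 held 74.9, 51.8 and 33.6 CPM, against 1.16, 2.91 and 0.645 CPM in F2, the largest cluster, and 7.15, 1.41 and 1.34 CPM in F1. In F5, 8.06%, 8.85% and 6.82% of cells had an Igfbp2 UMI. F5 held 188 of the 229 distal fibroblast UMIs of the gene. F3, F4 and F9 had no Igfbp2 UMI in any library with enough cells.

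The fibroblast clusters used different sets of ligand and binding proteins. Clusters F4 (Ly6h) and F7 (Dscam, Nrxn3) were high in Igf1: F4 held 1209 and 1225 CPM in proximal 2 and 4, against 1289 and 807 CPM in distal 2 and 3, and F7 held 967.5 and 823 CPM in distal 2 and 3. F1 (Inmt, Tcf21) held 303, 478 and 324 CPM in the 3 distal libraries, below all F7 and F4 values. F3 and F9 reached 1173 and 952 CPM of Igf1 in proximal 2, and stayed at or under 263 and 761 CPM in proximal 3 and 4. Distal F4 and F7 were drawn mostly from distal 2, which held 296 and 674 of their cells, and the 13 and 89 cells of distal 3 gave 807 and 823 CPM.

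Igfbp3, the main carrier of IGFs in blood, had its highest distal class mean in blood endothelium, at 326 ± 43.2 CPM, against 241 ± 120.1 CPM in fibroblasts (SD, n = 3 each), and these ranges overlapped. Among fibroblasts it was mainly found in clusters F3, F1, F2 and F5. F3 (C3, Sntg1, Vcam1) was highest, with 635, 2299 and 1244 CPM in proximal 2, 3 and 4, against 767, 397 and 1453 CPM in the distal libraries. F1 held 216, 236 and 338 CPM in proximal 2, 3 and 4, against 438.5, 195 and 374 CPM in distal 1, 2 and 3. F4 held 28.1 and 18.6 CPM in proximal 2 and 4, against 19.7 and 161 CPM in distal 2 and 3, and F7 held 9.32 and 14.6 CPM. F9 (Apod, Thy1), a proximal cluster of 26, 63 and 175 cells, held 0, 0 and 13.2 CPM, below F3 and F1 in each of the 3 libraries.

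F9 was high in Igfbp4, a carrier of IGFs that PAPP-A cuts, and in Igfbp6, which binds IGF2 in preference to IGF1. Its Igfbp4 was 1966, 3009 and 2627 CPM and its Igfbp6 2440, 1947 and 1641 CPM in proximal 2, 3 and 4. In the same libraries F1 held 613, 613 and 964 CPM of Igfbp4 and 860, 424.5 and 577 CPM of Igfbp6. F9 was above F1 for both genes in all 3 libraries. Igfbp5 was nearly absent from F9, with 0, 0 and 48.4 CPM.

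**Figure D3:**
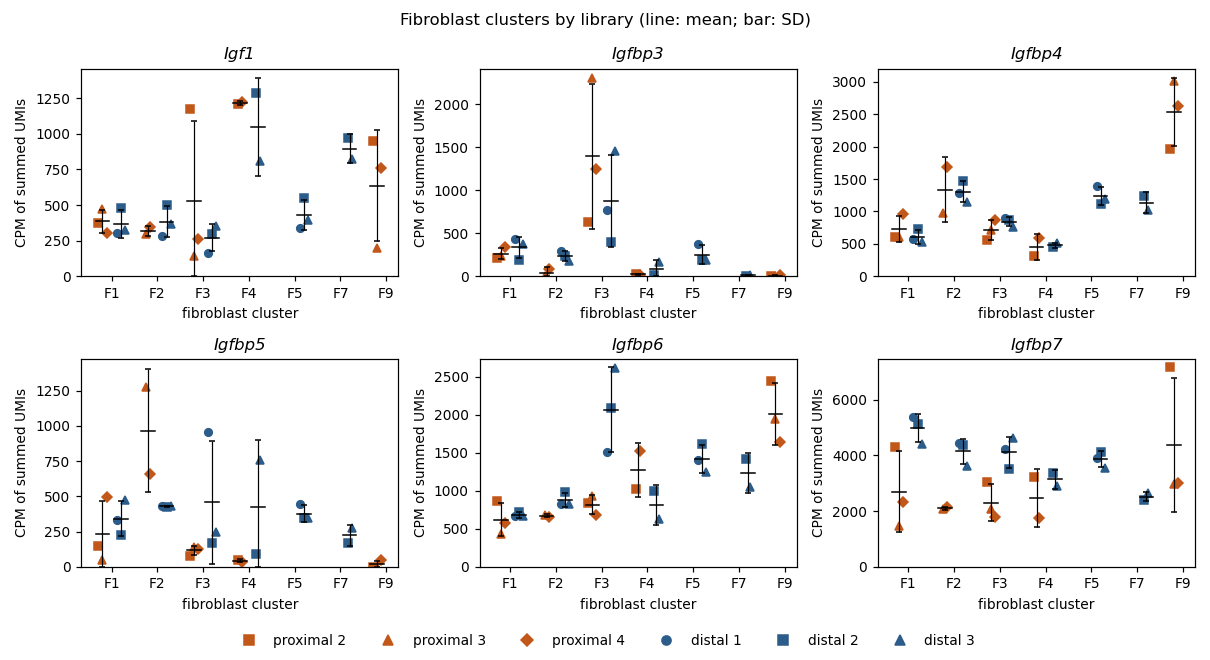
Ligand and binding proteins in fibroblast clusters, in CPM of summed UMIs, 1 point per library with at least 10 cells, orange for proximal (left) and blue for distal (right), with the mean and SD. Distal Igf1 is highest in F4 and F7, Igfbp3 in F3, and proximal Igfbp4 and Igfbp6 in F9.

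Among distal classes mesothelium had the highest mean of Igfbp4, Igfbp5 and Igfbp6, and lymphatic endothelium came next for Igfbp5. Mesothelium held 3565 CPM of Igfbp6 in proximal 4 (44 cells), against 7688 and 6372 CPM in distal 1 and 3 (36 and 14 cells). The next class, fibroblasts, held 862, 1142 and 878 CPM in the distal libraries. Mesothelial Igfbp5 was 3521 CPM in proximal 4, against 2112 and 2184 CPM in distal 1 and 3, and mesothelial Igfbp4 was 1868 CPM, against 1691 and 1717 CPM. Lymphatic endothelium had 671 CPM of Igfbp5 in proximal 4 (12 cells), against 2042 CPM in distal 1 (23 cells). With 1 proximal library these classes were not tested.

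Blood and lymphatic endothelium differed in Igfbp5. Distal blood endothelium held 2.90, 14.3 and 13.2 CPM, at the level of T and NK cells (24.8, 9.12 and 8.52 CPM), whereas the 1 distal lymphatic sample held 2042 CPM. Muscle held intermediate levels: visceral smooth muscle had 851, 572 and 907 CPM of Igfbp5 in the distal libraries. Cluster M2 (Pln, S1pr3, with 6 to 7 of the 7 smooth muscle markers in each library) had 511 and 1112 CPM in proximal 3 and 4, against 815 and 1480 CPM in distal 1 and 3. Igf1 split the muscle and mural cells: 616 to 912 CPM in visceral smooth muscle, 79.3 to 90.9 CPM in the pericyte-like cluster M5 (Rgs5, Higd1b), and 25.4 and 179.8 CPM in M2 of distal 1 and 3. M2 of proximal 3 and 4 had 0 UMIs of Igf1, where a floor of 3 counts is 191.7 and 57.5 CPM, so the proximal libraries were too shallow for a comparison. Igfbp3 was low in all of them, at most 10.5 CPM in visceral smooth muscle and 3.79 CPM in M5.

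In the distal section Igfbp7 was highest in cells of the vessel wall. Distal blood endothelium held 8988, 8239 and 6299 CPM and distal M5 7508, 7660 and 5629 CPM, and these ranges overlapped. M2 held 2429 and 3047 CPM in proximal 3 and 4, against 5883 and 4992 CPM in distal 1 and 3. Fibroblasts held 3752, 2356 and 2312 CPM in the proximal libraries, against 4711, 3747 and 3766 CPM in the distal ones. In the proximal section the order was another, with a mean of 2807 CPM in fibroblasts and 2738 CPM in M2, above the 1399 CPM of blood endothelium. Non-ciliated epithelium, at 57.4 ± 10.5 CPM in distal libraries (n = 3), and ciliated epithelium, at 62.1 ± 8.72 CPM, had lower means than the 229 ± 230 CPM of T and NK cells. All epithelial libraries of the distal section lay inside the range of 41.4 to 486 CPM of T and NK cells.

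The design asks how the proximal section differs from the distal one. UMIs were summed per library and class and tested with edgeR's quasi-likelihood test, with Benjamini-Hochberg adjustment over all genes and a threshold of 0.05. Fold changes are log2 of proximal over distal with their SE.

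Blood endothelium showed the clearest region difference. It had 34 and 56 cells in proximal 3 and 4, against 259, 28 and 155 in the distal libraries, and proximal 2 had only 2 such cells and did not enter. Igfbp7 held 1011 and 1786 CPM in proximal 3 and 4, against 8988, 8239 and 6299 CPM in distal 1, 2 and 3. The groups lay far apart, and the gene fell by 2.44 ± 0.34 on the log2 scale (edgeR adjusted p = 0.000269). Igfbp3 held 221 and 75.8 CPM in proximal 3 and 4, against 302, 300.4 and 376 CPM in the distal libraries, and fell by 1.47 ± 0.42 (edgeR adjusted p = 0.0299). The proximal values of Igfbp3 rest on 14 UMIs together, the distal ones on 496. Igfbp4 held 1138 and 1018 CPM in proximal 3 and 4, against 426, 694 and 471.5 CPM in the distal libraries, and rose by 1.04 ± 0.28 (edgeR adjusted p = 0.0233). The groups did not overlap for any of these 3 genes.

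Igf1r in endothelium held 537 and 346.5 CPM in the proximal libraries, against 266, 200.2 and 294 CPM in the distal ones, and did not pass (0.67 ± 0.31, edgeR adjusted p = 0.163). In all, 3 of the 4 members that passed the filter on low counts passed the test, 1 higher and 2 lower, where 12.2% of all 3391 genes tested passed, 5.66% higher and 6.52% lower. The other 5 members were too low in endothelium to be tested. The Igfbp3 call was lost without distal 1, distal 3 or proximal 4, and the Igfbp4 call without distal 1, distal 3, proximal 3 or proximal 4. The Igfbp3 call was also lost with DESeq2 (-1.42, DESeq2 adjusted p = 0.0654) and the Igfbp4 call with no filter on low counts (0.71, edgeR adjusted p = 0.2999). Without distal 2, the library numbered 2 in this class, all 3 calls held. Without proximal 4 the Igfbp3 difference was -0.81 (edgeR adjusted p = 0.463) and the Igfbp4 difference 0.89 (edgeR adjusted p = 0.306). Igfbp7 remained past the threshold without any 1 library, with differences between -3.20 and -2.22.

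Several measures stood beside the endothelial result. The 7 blood endothelial markers summed to 6637 and 7092 CPM in the proximal libraries, against 7101 to 7788 CPM in the distal ones. The 7 pericyte markers summed to 0 and 43.3 CPM in proximal endothelium (0 to 3 detected), against 50.1 to 545 CPM in distal endothelium (4 to 7 detected), and pericytes are themselves high in Igfbp7. The 7 fibroblast markers summed to 379 and 853 CPM, against 283 to 751 CPM, and the 3 haemoglobin genes to 190 and 2891 CPM, against 37.8 to 107 CPM. Their part in the Igfbp7 difference was not tested. With each cell thinned to 500 UMIs, 38.2% and 48.2% of proximal endothelial cells had an Igfbp7 UMI, against 87.6%, 89.3% and 79.4% of distal ones, and unthinned shares were 55.9% and 71.4%, against 95.4%, 92.9% and 90.3%. The share in thinned T and NK cells was 0% to 7.69% in proximal and 1.98% to 5.45% in distal libraries. Median depths of endothelial cells were 752 and 1072.5 UMIs in proximal libraries, against 3037, 3046.5 and 1539 UMIs in distal ones, and those of T and NK cells 2566.5, 680 and 634 UMIs in proximal 2, 3 and 4, against 1871, 2052 and 1623 UMIs in distal 1, 2 and 3. For Igfbp4, T and NK cells of proximal 3 held 1349 CPM, from 13 UMIs in a sample of 13 cells, above the 1138 CPM of endothelium in that library, and those of proximal 4 held 223 CPM. The part of free RNA in the Igfbp4 rise was not tested, nor was expression of the gene by T and NK cells themselves.

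**Figure D4:**
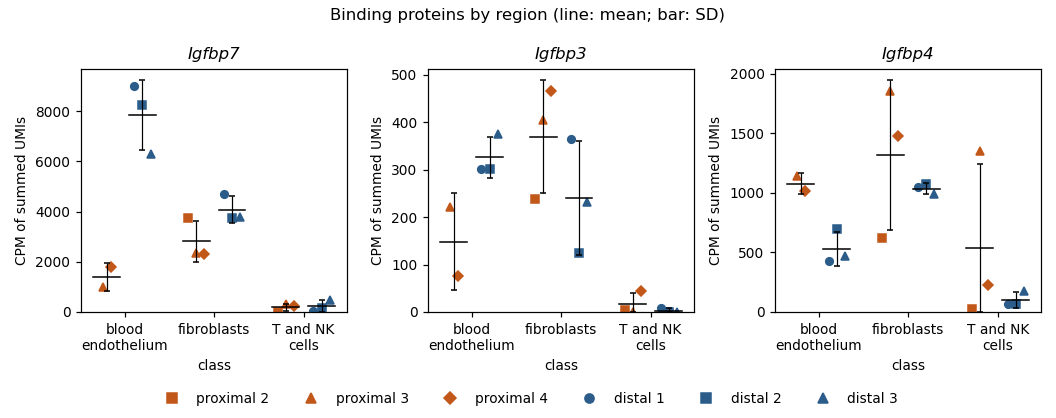
Igfbp7, Igfbp3 and Igfbp4 in CPM of summed UMIs for blood endothelium, fibroblasts and T and NK cells, 1 point per library with at least 10 cells, orange for proximal (left) and blue for distal (right), with the mean and SD. In endothelium the proximal points of Igfbp7 and Igfbp3 lie below all distal points and those of Igfbp4 above them, and fibroblast ranges overlap for all 3 genes.

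In fibroblasts (374, 130 and 598 cells in proximal 2, 3 and 4, against 2236, 2339 and 2150 in distal 1, 2 and 3) Igfbp2 fell. It had 0 UMIs in all 3 proximal libraries, against 14.99, 6.56 and 6.36 CPM in the distal ones, and was at least 10.1-fold lower at a floor of 3 counts over the proximal group (edgeR adjusted p = 0.0296). F5, the Igfbp2 cluster, had 0, 0 and 1 cells in proximal 2, 3 and 4, and its part in the difference was not tested. Without distal 1 or without proximal 3 the call was lost (edgeR adjusted p = 0.0648 and 0.0767), it held without both libraries numbered 2 (edgeR adjusted p = 0.0322), and no member passed when distal sums were thinned to the mean proximal total. This was 1 of the 9 members tested, where 3.11% of 13581 genes passed in either direction and 0.979% were lower.

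Igfbp5 held 92.5, 175 and 231 CPM in proximal fibroblasts, against 401, 252 and 419 CPM in distal ones. All proximal values lay below all distal ones, and the difference of -1.33 ± 0.34 did not pass (edgeR adjusted p = 0.0630). Igfbp7 had a difference of -0.66 ± 0.41 (edgeR adjusted p = 0.476), with proximal 2 at the level of distal 2 and 3. Without both libraries numbered 2, an alternative chosen after seeing the data, Igfbp5 and Igfbp7 passed with differences of -1.21 and -1.16 (edgeR adjusted p = 0.00332 and 0.00456). More genes over the whole class were called in that fit too, as given at the end. Igf1, Igf1r, Igfbp3, Igfbp4 and Igfbp6 had differences between -0.15 and 0.41 with overlapping groups. Igf2 had -1.07 ± 0.56 (edgeR adjusted p = 0.387). For Igf1 the libraries numbered 2 were the highest of their section, with 984 CPM in proximal 2, against 756 CPM in distal 2, and 263 and 518 CPM in proximal 3 and 4, against 299.9 and 386 CPM in distal 1 and 3.

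Within fibroblast clusters present in both sections, F1, F3 and F4 had no member past the threshold, where 1.48%, 1.57% and 0.124% of their genes passed. At an unadjusted p under 0.05, F1 had 0 members, F3 had 3 and F4 had 1, and DESeq2 called none in these 3 clusters. Of all genes tested in F1, F3 and F4, 1023 of 9586, 126 of 1461 and 304 of 7242 had such a p. DESeq2 called 54, 23 and 0 of all genes in F1, F3 and F4. In F3, Igfbp5 held 77.0, 144 and 127 CPM in proximal 2, 3 and 4, against 958.5, 165 and 249 CPM in distal 1, 2 and 3 (-2.02 ± 0.60, edgeR adjusted p = 0.0807). Igfbp5 was also lower in F4 (-2.66 ± 0.72, edgeR adjusted p = 0.160), and in F1 its groups overlapped. F2 went the other way in CPM, with 1277 and 658 CPM of Igfbp5 in proximal 3 and 4, against 434, 425 and 430 CPM in distal 1, 2 and 3. The fitted difference there was 0.05 ± 0.38 (edgeR adjusted p = 0.953). In F2, which rested on 16 and 35 proximal cells, Igfbp7 held 2062 and 2144 CPM in proximal 3 and 4, against 4433, 4389 and 3621 CPM in the distal libraries (-1.90 ± 0.37, edgeR adjusted p = 8.73e-05). Igfbp3 and Igfbp6 were also past the threshold in F2, so that 3 of 8 members tested fell, where 2.76% of all genes fell and 2.88% passed in either direction. The median of all genes in that fit was itself -1.07, so these differences should be read against it. Igfbp3 had 3 UMIs in proximal F2, a pooled ratio of 0.278 to distal with an exact 95% counting interval of 0.0573 to 0.814. When only library sizes were used, the F2 differences of Igfbp3 and Igfbp6 no longer passed (edgeR adjusted p = 0.269 and 0.709). The Igfbp6 call in F2 was also lost without any 1 library (edgeR adjusted p between 0.119 and 0.262), and the Igfbp3 call without distal 1, proximal 3 or proximal 4 (edgeR adjusted p = 0.0623, 0.269 and 0.293). Igfbp7 passed without any 1 library and not with distal sums thinned (-0.77, edgeR adjusted p = 0.0738). Without distal 2, the Igfbp3 and Igfbp7 calls held (edgeR adjusted p = 0.0286 and 0.0205). In F1, Igfbp7 passed without both libraries numbered 2.

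In non-ciliated epithelium (288, 89 and 146 cells in proximal 2, 3 and 4, against 1815, 892 and 1216 in distal 1, 2 and 3) no member passed with edgeR, where 3.33% of 12805 genes did. At an unadjusted p under 0.05 there were 3 of the 6 members tested, and DESeq2 called 1. Of all genes tested, 2215 of 12805 had such a p, and DESeq2 called 1526 genes. Igfbp7 held 23.7, 4.35 and 18.9 CPM in the proximal libraries, against 69.5, 51.3 and 51.3 CPM in the distal ones (-1.79 ± 0.49, edgeR adjusted p = 0.0745). Igfbp5 held 4.19, 0 and 42.6 CPM in proximal 2, 3 and 4, against 107, 29.5 and 122 CPM in the distal libraries (-2.45 ± 0.84, edgeR adjusted p = 0.146). Igfbp3 held 2.79, 8.71 and 12.6 CPM, against 19.9, 7.66 and 69.8 CPM (-2.19 ± 0.88, edgeR adjusted p = 0.226). Without both libraries numbered 2, an alternative chosen after seeing the data, 4 members passed, among them these 3. The number of all genes called rose with it as well, as given at the end.

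The sections also held different epithelial clusters. E10 (Serpina1e, Fxyd4, Crabp2) had 88, 83 and 80 cells in proximal 2, 3 and 4, against 7, 1 and 0 in distal 1, 2 and 3, and E4 and E8 were mostly distal. E10 held 17.9, 345 and 407 CPM of Igf1r and 80.3, 257 and 420.1 CPM of Igfbp4, and proximal 2 was the low library for both. It had no Igfbp2 UMI and at most 12.9 CPM of Igfbp5. In E2 none of 4 members tested passed with edgeR or DESeq2, and none had an unadjusted p under 0.05. Of all genes in E2, 0.545% passed with edgeR, DESeq2 called 48, and 589 of 7337 had an unadjusted p under 0.05. Its Igfbp4 held 170.4 and 858 CPM in proximal 2 and 4, against 184, 135 and 239.9 CPM in the distal libraries, and proximal 2 lay inside the distal range.

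Ciliated epithelium was compared over proximal 2 and 4 (24 and 34 cells) and the 3 distal libraries (664, 436 and 1174 cells). Igfbp2 was the 1 member of 8 tested that passed, where 1.02% of 13120 genes did and 0.442% were lower: it had 0 UMIs in both proximal libraries, and proximal 3, with 7 such cells, did not enter. The bound was at least 5.94-fold lower (edgeR adjusted p = 0.0281), and the call was lost without distal 1, distal 3 or proximal 4 (edgeR adjusted p = 0.0559, 0.0535 and 0.0601) and held without distal 2 or proximal 2 (edgeR adjusted p = 0.0499 and 0.0351). No member passed when distal sums were thinned to the mean proximal total. Proximal 2 drew 22 of its 24 ciliated cells from E6 and proximal 4 drew 30 of 34 from E7, and no proximal cell fell in E5, the Igfbp2 cluster. Within E7, Igfbp2 had 0 UMIs in proximal 4, against 35.2, 41.8 and 67.7 CPM in the distal libraries, where a floor of 3 counts is 32.1 CPM for that library.

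Igfbp3 went the other way in ciliated cells of proximal 4. It held 0 and 250 CPM in proximal 2 and 4, against 29.7, 7.03 and 55.5 CPM in distal 1, 2 and 3, and did not pass (1.85 ± 0.95, edgeR adjusted p = 0.347). In E7 the value was 299 CPM in proximal 4, against 27.3, 27.0 and 21.5 CPM in the distal libraries. The 28 UMIs came from 12 of 30 cells, with at most 8 in a cell, against 49 UMIs in 35 of 357 distal cells. It rests on 1 proximal library and was not tested in E7. With cluster E3 left out, an alternative chosen after seeing the data, the ciliated difference passed at 3.37 (edgeR adjusted p = 0.0237). Without proximal 4 the only proximal library left had 0 UMIs, where a floor of 3 counts is 29.3 CPM, so no difference is given.

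**Figure D5:**
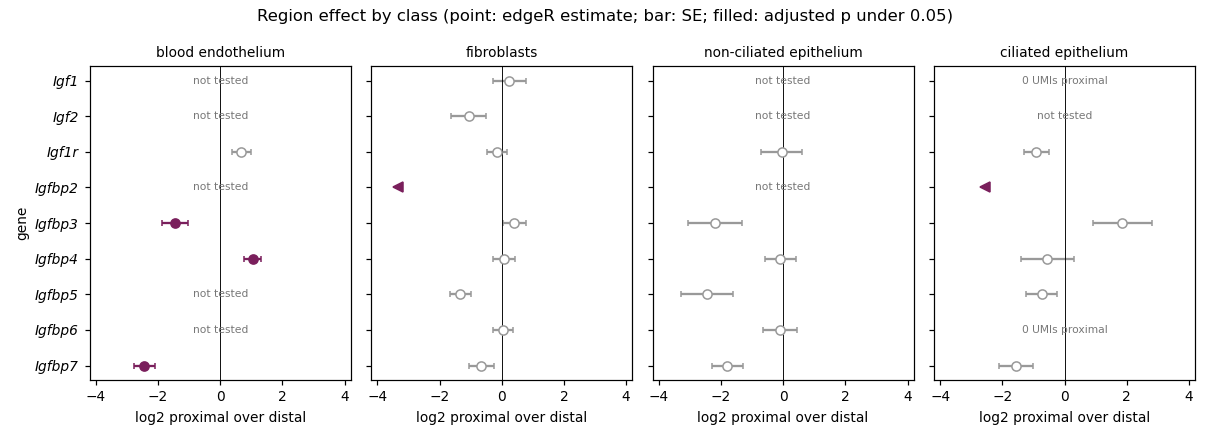
Region differences of the 9 IGF genes in 4 classes, as log2 of proximal over distal from edgeR with its SE, filled where the adjusted p was under 0.05. Left-pointing triangles are bounds for genes with 0 proximal UMIs, at least 10.1-fold lower in fibroblasts and 5.94-fold lower in ciliated epithelium, and the filled circles are Igfbp7 at -2.44, Igfbp3 at -1.47 and Igfbp4 at 1.04 in blood endothelium.

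In the muscle cluster M2 and in T and NK and myeloid cells no member passed with edgeR, where 4.42%, 0.993% and 0.0462% of genes did. In these units 2, 1 and 1 members had an unadjusted p under 0.05, as did 313 of 1198, 260 of 2416 and 330 of 2163 genes. DESeq2 called 1 member in M2, Igfbp7 (-1.09, DESeq2 adjusted p = 0.0355), and 0 in T and NK and myeloid cells. Of all genes it called 41, 33 and 39 in these units. In M2 Igfbp7 had 2429 and 3047 CPM in proximal libraries 3 and 4, against 5883 and 4992 CPM in distal libraries 1 and 3, and the edgeR difference was -1.07 ± 0.28 (SE, edgeR adjusted p = 0.0747). The 2 proximal values lay below the 2 distal ones.

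Whether region differences themselves differed between classes was tested with a class by region term and library as a block. Between blood endothelium and fibroblasts, over 5 libraries, 3 of the 8 members tested passed, where 1.14% of 10252 genes did. The Igfbp7 difference was more negative in endothelium than in fibroblasts by 1.71 ± 0.28 (-1.71, edgeR adjusted p = 3.67e-07) and that of Igfbp3 likewise (-2.46 ± 0.48, edgeR adjusted p = 8.78e-05). The Igfbp5 term was 3.56 ± 0.97 (edgeR adjusted p = 0.0269), but endothelial Igfbp5 rests on 0 and 6 UMIs in proximal 3 and 4, against 3, 2 and 5 UMIs in distal 1, 2 and 3, and the term cannot be read without proximal 4, where 0 proximal UMIs remain, and did not pass without distal 1 (2.63, edgeR adjusted p = 0.208). The Igfbp3 term was -1.35 without proximal 4 (edgeR adjusted p = 0.869). Without distal 2 all 3 terms passed. Between non-ciliated epithelium and fibroblasts no member passed with edgeR, where 2.07% of 15865 genes did, and Igfbp3 and Igfbp7 had an unadjusted p under 0.05. The terms there were -2.16 ± 0.72 for Igfbp3 and -1.11 ± 0.37 for Igfbp7 (edgeR adjusted p = 0.174 and 0.180).

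The wider pathway was read from a list of 40 further genes, all present in the matrices. In fibroblasts 36 of them were tested, and 1 rose and 1 fell, where 3.11% of all 13581 genes passed. H19, the non-coding neighbour of Igf2, held 18.0, 21.9 and 42.8 CPM in proximal 2, 3 and 4, against 1.86, 3.19 and 7.36 CPM in distal 1, 2 and 3 (2.64 ± 0.51, edgeR adjusted p = 0.0242). The value of proximal 3 rests on 2 UMIs. The H19 call held without both libraries numbered 2 (2.85, edgeR adjusted p = 0.00596) and was lost without distal 1, distal 2, proximal 3 or proximal 4 and with distal sums thinned (edgeR adjusted p between 0.0512 and 0.0767). Htra3, a serine protease, held 672, 1008 and 866 CPM, against 1820, 1738 and 1989 CPM (-1.33 ± 0.31, edgeR adjusted p = 0.0456). That call held without proximal 2 and without both libraries numbered 2 (-1.33, edgeR adjusted p = 0.00150), and was lost without any other single library, with library sizes only, with either block and with distal sums thinned (edgeR adjusted p between 0.0619 and 0.213). In F2 Htra3 also fell, with 1178 and 1458 CPM in proximal 3 and 4, against 2183, 2461 and 2363 CPM in the distal libraries (-1.68 ± 0.37, edgeR adjusted p = 0.00105), where the median of all genes was -1.07. It was the 1 listed gene of 35 tested that passed in F2, where 2.88% of all genes did. The F2 call held without distal 2 (edgeR adjusted p = 0.0389) and was lost without distal 3 or proximal 3, with library sizes only and with distal sums thinned (edgeR adjusted p between 0.0528 and 0.381).

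Pappa2, a protease that cuts IGFBP3 and IGFBP5, was lower in proximal F1 fibroblasts. It was the 1 listed gene of 33 tested that passed in F1, where 1.48% of all genes did. It had 1, 0 and 0 UMIs in proximal 2, 3 and 4, against 53.3, 54.2 and 50.8 CPM in distal 1, 2 and 3 (edgeR adjusted p = 0.000231). The pooled ratio was 0.0265 with an exact 95% counting interval of 0.000670 to 0.149, and the call held without both libraries numbered 2 (edgeR adjusted p = 0.00240). The RNA-binding protein gene Igf2bp3 was lower in proximal non-ciliated epithelium, with 0, 1 and 0 UMIs, against 15.2, 9.83 and 22.2 CPM (pooled ratio 0.0386, interval 0.000975 to 0.216, edgeR adjusted p = 0.0332). The Igf2bp3 call held without both libraries numbered 2 (edgeR adjusted p = 0.00374) and was lost without distal 2, proximal 3 or proximal 4 (edgeR adjusted p between 0.0803 and 0.123). No value was obtained for Igf2bp3 without distal 1, without distal 3 or with distal sums thinned, nor for Pappa2 with distal sums thinned. Igf2bp3 was the 1 gene of 31 listed genes tested that passed in non-ciliated epithelium, where 3.33% of all 12805 genes did. No listed gene passed in blood endothelium (16 tested) or ciliated epithelium (32 tested), where 12.2% and 1.02% of all genes did. At an unadjusted p under 0.05 there were 4 listed genes in endothelium and 2 in ciliated epithelium. Of all genes tested, 952 of 3391 and 2176 of 13120 had such a p. The median difference of the listed genes was -0.04 in fibroblasts, 0.34 in blood endothelium, -0.14 in ciliated and -0.04 in non-ciliated epithelium, beside -0.03, -0.00, -0.25 and -0.08 over all genes tested.

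Some further genes of the pathway, named after their values were seen, had their own sites in distal libraries. Insr, the insulin receptor, was highest in blood endothelium at 1168 ± 269 CPM (n = 3), against 112 ± 18.0 CPM in M2 (n = 2), the next class. Htra3 was highest in fibroblasts at 1849 ± 128 CPM, against 149 ± 34.9 CPM in visceral smooth muscle (n = 3 each). Ghr, the growth hormone receptor, held 260 ± 28.3 CPM in fibroblasts, and Stc1 and Stc2, inhibitors of PAPP-A, held 124 ± 23.9 and 69.6 ± 7.40 CPM in non-ciliated epithelium (n = 3). Stc2 was higher in mesothelium at 397 ± 281 CPM (n = 2). Igfbp1 had a mean of 0 CPM in each of the 12 distal classes.

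Over the 25 distal clusters and classes, genes with profiles most like those of the members were named by Pearson's r of log2(CPM + 5) among 13849 genes. For Igf1 they were Gabrb1, Fzd2 and Sgcd (r 0.94 each), for Igfbp7 Timp3, Fcgrt and Eva1b (0.96, 0.95 and 0.95), and for Igf1r Ash1l, Myo9a and Atp9b (0.94, 0.94 and 0.94). Igfbp6 was most like Tenm3, Adk and Loxl1 (0.94, 0.93 and 0.93), Igfbp4 like Ddah2, Sparc and Pxdn (0.89 each), and Igfbp5 like Twsg1, Bmpr1a and Fzd2 (0.88, 0.87 and 0.86). Igfbp3 was most like Scara3, Hmcn1 and Gxylt2 (0.87, 0.82 and 0.81), Igfbp2 like Ak8, Gnal and Strbp (0.83, 0.83 and 0.82), and Igf2 like Lin7a, Grm7 and Vstm4 (0.84, 0.82 and 0.82). Among members, Igf1 and Igfbp6 had r = 0.93 and Igfbp2 and Igfbp7 r = -0.50. The points share libraries and differ in depth, so these values describe the profiles only.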

How the data were processed

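The authors deposited UMI counts per gene and cell for 6 droplet libraries (3' chemistry, per the labels' protocols). Cell Ranger 6.1.2 and the mm39 build are named in the submitters' processing notes, and version 7.0.0 in the headers of the files. The RefSeq windows are of GRCm38.p6 and no coordinate was converted.

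Barcodes needed at least 500 UMIs and 250 genes and at most 20% mitochondrial UMIs, which 1447 failed, and 818 called doublets were removed. Cells were clustered by Leiden (scanpy 1.11.5, python-igraph 0.11.9) on 2000 variable genes without the 9 members, the 40 pathway genes, and mitochondrial, ribosomal and haemoglobin genes. Clusters were named from marker lists, so shares may differ from the study's, and 478 cells of mixed clusters were left out. The counts of a class in a library were added up and tested with edgeR 4.0.16 (TMM, filterByExpr with a minimum count of 10 and total of 15, R 4.3.3), checked on simulated counts. DESeq2 1.42.0 was an alternative. Fewer than 10 cells kept a library out. Intervals are exact at 95%, floors are 3 counts, and both cover counting error only. The p-values measure the spread between pooled libraries.

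The members and lists were chosen with earlier results of these data known. The 9 members are always named, other pathway genes where they passed the threshold (at most 6 per comparison), and for likeness the 3 genes with the highest r. Depth ran between 426707 and 32488145 UMIs per library.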

Additional observations from a re-analysis of the deposited data

Results flagged for a closer look

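The proximal over distal difference itself differed between blood endothelium and fibroblasts for 3 genes, by edgeR's test of the class by region term. Igfbp7 had a term of -1.71 (edgeR adjusted p = 3.67e-07), Igfbp3 one of -2.46 (edgeR adjusted p = 8.78e-05) and Igfbp5 one of 3.56 (edgeR adjusted p = 0.0269). The Igfbp7 term ran between -2.15 and -1.28 when each library was left out in turn, while that of Igfbp3 was -1.35 without proximal 4. Without that library no proximal endothelial UMI of Igfbp5 remains, and its term cannot be read. Endothelial Igfbp5 rests on 6 proximal and 10 distal UMIs, and endothelial Igfbp3 on 14 and 496.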

How the results depend on the processing

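Igfbp7 in blood endothelium stayed past the threshold under every alternative fitted in that class. The blocks by title or description number and the term for the libraries numbered 2 were not fitted there, because proximal 2 did not enter. A pairing of libraries was therefore not tested in blood endothelium. Of the differences of members, leaving-out of libraries aside, 357 kept direction and side of the threshold, 29 came to pass it, 9 lost it and 23 turned. Where a difference turned, the cause was not tested. With the replicate block (title number), for which only numbers 2 and 3 hold both sections, 2 members passed in fibroblasts and 1 in non-ciliated epithelium, and the differences in fibroblasts were -0.165 for Igf1 and -0.111 for Igfbp4. The deviations of same-numbered libraries correlated at 0.48 for number 2 and 0.19 for number 3. Both were the highest values of these distal libraries with any proximal one. Distal 1 and proximal 4, with unlike numbers, correlated at 0.23. These 2 pairs cannot decide whether the libraries are paired, and the main fits did not pair them. The labels' descriptions give distal 3 the number 4, unlike its title. With the description number as a block, 2 passed in fibroblasts and 2 in non-ciliated epithelium. In that fit Igfbp4 and Igfbp6 in fibroblasts were at -0.21 and -0.026, and Igfbp6 in non-ciliated epithelium at 0.089. With a term for the libraries numbered 2, 2 passed in ciliated epithelium, 2 in fibroblasts and 2 in non-ciliated epithelium. Without both libraries numbered 2, 3 passed in fibroblasts and 4 in non-ciliated epithelium, where Igf1r was at 0.17 and Igfbp6 at 0.38. With no filter, 2 passed in blood endothelium, 2 in ciliated epithelium, 2 in fibroblasts and 4 in non-ciliated epithelium, and Igfbp4 and Igfbp6 in fibroblasts were at -0.062 and -0.087. DESeq2 called 2 in blood endothelium, 2 in fibroblasts and 1 in non-ciliated epithelium, where it called 232, 523 and 1526 of all genes. With library sizes only, Igf1r was at 0.065 in fibroblasts and 0.205 in non-ciliated epithelium, where Igfbp4 and Igfbp6 were at 0.114 and 0.045, Igfbp4 in F2 was at 0.16, and the Igfbp4 term between non-ciliated epithelium and fibroblasts was -0.11. With distal sums thinned, 0 passed in ciliated epithelium and 0 in fibroblasts, Igf1r and Igfbp4 in non-ciliated epithelium were at 0.095 and 0.12, and Igfbp4 in F2 at 0.218. With doublets kept, 2 passed in ciliated epithelium, where Igfbp4 was at 0.099, and Igfbp6 in non-ciliated epithelium was at 0.958. At most 10% mitochondrial UMIs put that gene at 1.017 and keeping mixed clusters at 0.587, with 1 member passing there. Without cluster E3, 2 passed in ciliated epithelium and Igfbp4 was at 0.772. Keeping mixed clusters, leaving out E3 and leaving out both libraries numbered 2 were chosen after seeing the data. The alternatives for H19, Htra3, Pappa2 and Igf2bp3 were also added then, and, leaving-out of single libraries aside, 45 differences kept direction and side and 7 lost the threshold.

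Leaving out each library in turn gave 1 to 3 members in blood endothelium, 0 to 1 in ciliated epithelium, 0 to 3 in fibroblasts, 0 to 2 in non-ciliated epithelium and 1 to 3 for the term between endothelium and fibroblasts. It also turned these differences: in fibroblasts Igf1 (-0.552 to 0.756), Igf1r (-0.33 to 0.038), Igfbp4 (-0.159 to 0.313) and Igfbp6 (-0.095 to 0.211), in F3 Igf1 (-0.17 to 1.712), in ciliated epithelium Igfbp3 (-9.51 to 2.72, the first fitted against 0 UMIs and no bound) and Igfbp4 (-0.883 to 0.791), and in non-ciliated epithelium Igf1r (-0.556 to 0.411), Igfbp4 (-0.559 to 0.285) and Igfbp6 (-0.744 to 0.089). Terms between non-ciliated epithelium and fibroblasts that turned were Igf1 (-1.707 to 0.1), Igf2 (-2.237 to 3.582), Igf1r (-0.952 to 0.327), Igfbp4 (-0.599 to 0.217) and Igfbp6 (-1.167 to 0.126), and between endothelium and fibroblasts Igfbp5 (-5.467 to 4.149, the first likewise). Where 1 library of a section remained, it was assumed to vary like the other section.

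Over all genes, counts moved by over 1.5 times as well, and the member counts above should be read beside these totals. The main fits tested 13581 genes in fibroblasts, 12805 in non-ciliated epithelium, 13120 in ciliated epithelium and 3391 in blood endothelium. Fibroblasts had 423 calls, against 1359 with no filter, 1351 with the term, 718 with the description number, 2125 without both libraries numbered 2 and 205 when thinned. Non-ciliated epithelium had 426, against 1526 with DESeq2, 1368, 1481, 3651 and 97 with no filter, the term, without both and thinned. Ciliated epithelium had 134, against 645 with DESeq2 and 750 with no filter, and blood endothelium 413, against 232 with DESeq2 and 264 when thinned.

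With proximal in place of distal libraries, 4 of the 9 members kept the class with the highest mean. With medians in place of means over the distal libraries, 7 of the 9 kept their highest class. Visceral smooth muscle had under 10 cells in each proximal library, so its test and its term against fibroblasts could not be fitted.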
